A study of Mus musculus with 6 samples.

Results

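Lrrk2, Park7, Vps35, Pink1, Tmem175, Atp13a2, Scarb2 and Fbxo7 are 8 genes that inherited or common variants tie to Parkinson disease (PD). They were chosen by name, as 8 of the 32285 genes in the deposited count matrices, and were followed across the immune cell types, treatments and microglial states of the midbrain. The cells were CD45+ cells of the midbrain of male Line 61 mice, in which human α-Syn is driven by the neuronal Thy1 promoter, and they were profiled by scRNA-Seq with 10x 3′ libraries. All groups share this transgene, and mice were injected into the striatum on both sides at 12 to 15 weeks of age and studied at week 6. There were 4 groups, injected with PBS, with α-Syn monomer or with preformed α-Syn fibrils (PFF), and the 2 PFF groups received vehicle with 0.1% DMSO (PFF + VH) or 25 mg/kg of AZD1480, an inhibitor of JAK1 and JAK2 (PFF + AZD1480), by gavage from week 2 for 4 weeks. Each sample pooled 3 to 5 midbrains.

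The products of these genes sit along the route from endosome to lysosome and in the quality control of mitochondria. LRRK2 is a kinase that phosphorylates Rab GTPases on endosomes and lysosomes, and VPS35 is a core subunit of retromer, which returns cargo from endosomes. SCARB2 (LIMP-2) is a lysosomal membrane protein that acts in transport to the lysosome, TMEM175 is an ion channel of the lysosomal membrane, and ATP13A2 exports polyamines from lysosomes. PINK1 is a kinase that marks damaged mitochondria for removal, FBXO7 is a substrate adaptor of an SCF ubiquitin ligase that also binds a proteasome inhibitor, and Park7 encodes DJ-1, a protein of the response to oxidative stress. The question was in which immune cells each of them was found.

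Each group is 1 library. Cells of PBS and monomer carry no hashtag that would tell their replicates apart, so that their values have exact Poisson 95% intervals, which cover counting error only, and no test. Cells of PFF + VH carry 4 hashtags and those of PFF + AZD1480 carry 5, equal to the replicates stated for these groups. Hashtags were therefore treated as replicates, although no source says so outright. All hashtags of a group share 1 library, so library and treatment cannot be told apart. Total UMIs per library were 99658216 to 116440449. PFF + VH stood apart, with 34436 cells kept at a median of 2306 UMIs, against 13021 to 15031 cells at 6616 to 7028 UMIs in the other libraries. Pairs of libraries shared 51 to 163 barcodes, at most 1.05% of the smaller one. Of the 77105 cells kept, 70147 were microglia-like (MG), 1189 border macrophage-like (BM), 356 T-like, 301 NK-like, 251 neutrophil-like, 149 B-like, 109 monocyte-like and 45 dendritic-like, while 52 were not immune and 4506 stayed unassigned. A cell belongs to a class when at least 3 markers of that class have a UMI and their sum exceeds that of every other class, so the classes are ranges of marker UMIs and not the authors' annotation. The summed MG markers were at 8809 to 10750 CPM in MG. They reached 4186 CPM in the neutrophils of PFF + VH, against 512 to 1676 CPM in those of the other libraries. All other immune classes beside MG also had more of them in PFF + VH than in any other library. B cells had 2004 against 412 to 735 CPM, T cells 1797 against 429 to 966 and NK cells 1368 against 370 to 514. BM had 2215 against 1397 to 1429 CPM. Their part in the levels and tests below was not tested.

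Lrrk2 (ENSMUSG00000036273, mm10 chr15:91673175-91816120, plus strand) was found in neutrophils, B cells, dendritic cells and monocytes and was close to 0 in MG. Levels are counts per 1e+06 UMIs of a class (CPM). They are compared within a gene and not between genes, because 3′ counts were not scaled by length. In neutrophils Lrrk2 was at 181 CPM in PBS (95% interval 137 to 235), 245 in monomer (153 to 371), 78.2 in PFF + VH (47.7 to 121) and 327 in PFF + AZD1480 (274 to 387). B cells had 281, 160, 122 and 74.1 CPM in the same order of libraries. The interval of neutrophils in PFF + VH lay below those of the other libraries, while the B cell values fell in another order. Dendritic cells had 81.2, 149, 100.5 and 120 CPM, from 7 to 15 cells a library. Monocytes had 29.9, 162, 16.0 and 64.0 CPM. The highest monocyte value, in monomer, came from 22 UMIs in 8 cells, 9 of them in 1 cell.

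In MG, Lrrk2 was at 0.145, 0.191, 0.373 and 0.173 CPM in PBS, monomer, PFF + VH and PFF + AZD1480, from 14, 18, 38 and 14 UMIs. BM had 2.0, 2.26, 2.75 and 1.84 CPM, from 3 UMIs in each library. T cells held 3 UMIs in all libraries together and NK cells held 3 in 1 cell. Pooled over the libraries, the level was 217 CPM in neutrophils (95% interval 190 to 247), 160 in B cells (130 to 194), 114 in dendritic cells (82.9 to 153), 56.2 in monocytes (40.2 to 76.5), 2.16 in BM (1.12 to 3.78) and 0.225 in MG (0.18 to 0.279). The ratio of these measured levels to that of MG was 966 in neutrophils, 710 in B cells, 507 in dendritic cells and 250 in monocytes, each above MG in 4 of 4 libraries. It is no fold of expression, because the few UMIs in MG are not read as expression, and it hangs on single libraries. Within a library the ratio of neutrophils ran from 209 in PFF + VH to 1885 in PFF + AZD1480, and it was 1542 without the former and 626 without the latter. For B cells the ratio was 467 without PBS, and for monocytes it was 132 without monomer and 460 without PFF + VH. In the order of the mean levels, which ran from neutrophils over B, dendritic and monocyte-like cells to BM, T, NK and MG, only monocytes and BM were neighbours whose ranges over the libraries did not overlap. The 4506 unassigned cells were at 9.72 CPM (7.40 to 12.5). Among cells with 2000 to 6000 UMIs the level was 194 CPM in neutrophils, 240 in B cells, 301 in dendritic cells (9 UMIs in 8 cells), 76.3 in monocytes, 0.532 in BM (1 UMI) and 0.287 in MG.

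**Figure D1:**
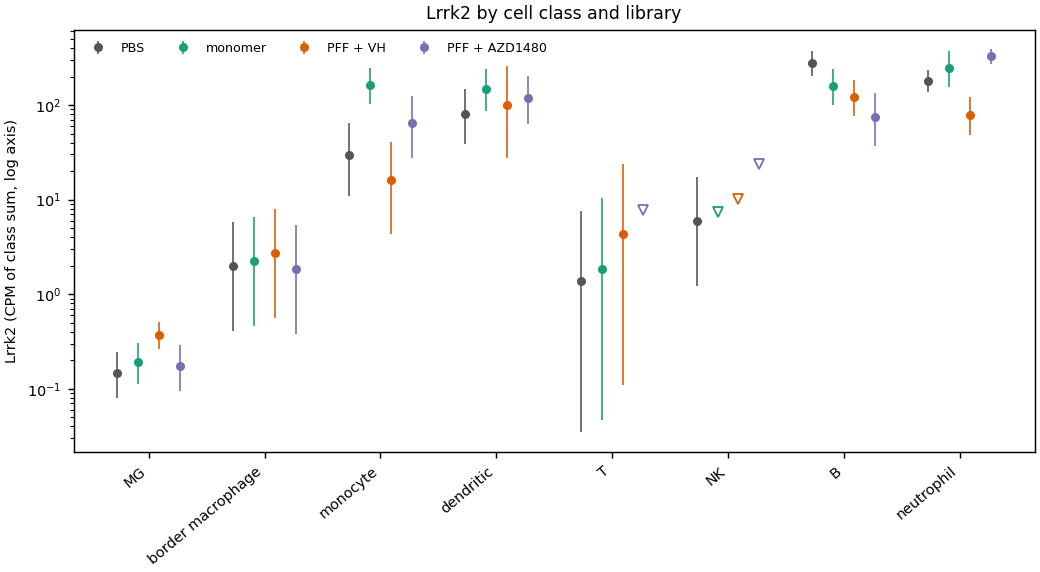
Lrrk2 in 8 cell classes of each library, in CPM on a log axis, where bars are exact Poisson intervals at 95%. Open triangles mark the upper limit of a class with 0 UMIs. Neutrophils, B cells, dendritic cells and monocytes lie between 16.0 and 327 CPM, and MG between 0.145 and 0.373 CPM.

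A large part of the Lrrk2 UMIs came from few cells, least so in PFF + VH, where MG held 38 of 107, more than any other class. MG held 94.8 to 95.9% of all UMIs of a library but 7.0 to 35.5% of its 107 to 200 Lrrk2 UMIs. Neutrophils held 0.0914 to 0.478% of all UMIs but 18.7 to 66.5% of those of Lrrk2, and B cells held 0.140 to 0.174% but 5.50 to 28.3%. For comparison, 96.5 to 97.8% of Scarb2 UMIs were in MG. A Lrrk2 UMI was seen in 74 of 70147 MG, or 0.105%, against 0.843% of T cells and 0.332% of NK cells, whose median depths lay between 2827 and 6714 UMIs and those of MG between 2457 and 7293. The MG share was thus below that in lymphocytes with 3 UMIs each, and no expression in MG is read from it. Of those 74 MG, 63 also had a marker UMI of B cells, neutrophils, dendritic cells or monocytes (85.1%), as did 80.0% of all other MG.

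The median depth of neutrophils was 1697 UMIs in PFF + VH and 5735 with AZD1480, against 3697 UMIs in PBS and 3407 UMIs in monomer. The libraries lowest and highest in depth were also those lowest and highest in Lrrk2, while PBS and monomer were in the other order. Neutrophil markers took 17.8, 23.3, 14.9 and 26.8% of the UMIs of these cells in PBS, monomer, PFF + VH and PFF + AZD1480, the same order as Lrrk2. MG markers were highest in the neutrophils of PFF + VH, as given above. The parts of depth and of these marker shares were not tested. Among neutrophils with at least 100 neutrophil marker UMIs, Lrrk2 was at 185, 259, 107 and 339 CPM in PBS, monomer, PFF + VH and PFF + AZD1480, so the order of the libraries was as before. The PFF + VH value then rested on 19 UMIs in 55 cells. After each cell was thinned to 1000 UMIs, 15.4, 21.1, 2.22 and 20.7% of neutrophils and 33.3, 18.5, 15.6 and 7.14% of B cells had a Lrrk2 UMI. Unthinned, the shares were 40.9, 52.6, 15.2 and 63.9% of neutrophils and 60.9, 51.9, 31.3 and 28.6% of B cells. Hashtags with at least 10 neutrophils had 53.6, 179 and 0 CPM in PFF + VH, from 3, 9 and 0 UMIs. In PFF + AZD1480 such hashtags had 412 and 324 CPM, from 55 and 29 UMIs. Hashtags under 10 neutrophils were at 0 CPM in PFF + VH and at 181, 304 and 312.5 CPM in PFF + AZD1480. With so few hashtags and UMIs no test was made.

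The sequence upstream of Lrrk2 is shown because this gene differed most between cell classes. It is the plus strand of chr15:91672974-91673173 in GRCm38, taken from the promoter windows of RefSeq, and holds no exon base. Capitals mark CG dinucleotides.
Lrrk2: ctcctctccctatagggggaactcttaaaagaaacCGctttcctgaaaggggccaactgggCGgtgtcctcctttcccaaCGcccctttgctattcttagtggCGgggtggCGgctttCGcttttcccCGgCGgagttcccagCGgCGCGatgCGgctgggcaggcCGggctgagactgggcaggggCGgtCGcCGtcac
It holds 16 CG dinucleotides, against a median of 4 over 32851 windows of this length. The letters GGCGGG, a motif of Sp factors, occur in it on either strand, as in 24.6% of all windows. GAGGAA, found in sites of PU.1, and CACGTG, the E-box of TFEB, do not occur in it and are held by 18.8% and 4.34% of windows.

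Scarb2 (ENSMUSG00000029426, chr5:92441314-92506833, minus strand) was, unlike Lrrk2, highest in MG among the 8 classes in all 4 libraries. MG were at 219.5, 235, 223.5 and 234 CPM in PBS, monomer, PFF + VH and PFF + AZD1480. BM had 114, 114.5, 136 and 106 CPM, and T cells 62.9, 33.6, 47.5 and 54.3 CPM. The ranges of MG and BM did not overlap. Pooled over libraries, MG were 1.96 times as high as BM, 2.03 times as monocytes, 2.86 times as neutrophils, 3.85 times as B cells and 4.46 times as T cells. All other neighbours in the order of levels overlapped, and the 7 dendritic cells of PFF + VH had no Scarb2 UMI (95% interval 0 to 92.7 CPM).

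The difference from BM was tested within hashtags, with a two-sided exact sign-flip permutation test of log2(CPM + 10). Scarb2 was at 106 ± 32.4 CPM in BM and 229 ± 15.1 CPM in MG (SD, 9 hashtags). It was lower in BM in 9 of 9 hashtags, by a mean log2 difference of -1.08 (SD 0.43). The exact p was 0.003906, the smallest that 9 hashtags can give, and 0.0211 after adjustment over all 8454 genes tested. Of these genes 2304 passed, or 27.3%, so that 1 member of 7 tested lies below this background. Among cells with 2000 to 6000 UMIs the difference was -1.11 and the adjusted p was 0.0914, so the call was lost in that range. The members that did not pass were Park7 (log2 difference 0.21, adjusted exact p 0.193), Vps35 (0.09, 0.516), Pink1 (-0.28, 0.445), Tmem175 (-0.36, 0.474), Atp13a2 (-0.15, 0.859) and Fbxo7 (-0.24, 0.519). Lrrk2 was under the least mean of 10 CPM and was not tested.

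Tmem175 (ENSMUSG00000013495, chr5:108629770-108648782, plus strand) was at 43.4, 44.0, 36.4 and 37.7 CPM in MG, 38.0, 39.9, 37.6 and 30.7 CPM in BM and 28.7, 35.4, 30.2 and 14.6 CPM in T cells, in the same order of libraries. Pooled over all libraries it was highest in MG and lowest in monocytes, at 40.4 and 11.2 CPM, the latter from 8 UMIs and at 6.95 CPM without monomer. Within a library MG were highest only in PBS. NK cells were above them in monomer (44.6 CPM), BM in PFF + VH (37.6 CPM) and B cells in PFF + AZD1480 (53.9 CPM, from 8 UMIs). Each pair of neighbours in its order overlapped. It shares 2090 bases with Dgkq on the other strand, and whether the counting used strand is not given in the sources used here.

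Atp13a2 (ENSMUSG00000036622, chr4:140986873-141007330, plus strand) was at 29.3, 26.1, 27.7 and 35.0 CPM in MG and 36.7, 40.7, 36.7 and 36.9 CPM in BM. BM were above MG in 4 of 4 libraries. Within hashtags of the PFF libraries the mean went the other way, at 30.4 CPM in BM and 31.3 CPM in MG. BM were higher in 4 of 9 hashtags and lower in 5, and the test did not call a difference. T and NK cells had few UMIs of this gene, 13 and 11 in all, which gave 6.57 CPM (95% interval 3.50 to 11.2) and 7.23 CPM (3.61 to 12.9), against 29.3 CPM in MG. Its window upstream of the RefSeq start is shown because Atp13a2 is 1 of the 2 members that changed with AZD1480. It is the plus strand of chr4:140986671-140986870, with no exon base.
Atp13a2: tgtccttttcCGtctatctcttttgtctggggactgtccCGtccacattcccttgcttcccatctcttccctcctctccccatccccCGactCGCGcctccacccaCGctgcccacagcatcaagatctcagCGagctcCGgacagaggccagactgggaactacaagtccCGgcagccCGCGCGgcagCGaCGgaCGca
It holds 15 CG dinucleotides and none of the motifs searched.

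Vps35 (ENSMUSG00000031696, chr8:85260392-85299802, minus strand) was at 109, 102, 90.8 and 99.6 CPM in MG and 107, 108.5, 109 and 114 CPM in BM. T cells had 60.1, 26.1, 38.9 and 56.3 CPM, below MG in 4 of 4 libraries, as did NK cells at 57.4, 40.5, 70.7 and 38.5 CPM. Monocytes had the highest mean, with values from 66.2 to 176 CPM that overlapped those of BM. The gene shares 171 bases with Orc6 on the other strand.

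Pink1 (ENSMUSG00000028756, chr4:138313409-138326307, minus strand) varied little between classes other than dendritic cells. It was at 25.8, 26.4, 22.3 and 25.6 CPM in MG and 27.3, 28.0, 34.6 and 39.6 CPM in T cells. T cells were above MG in 4 of 4 libraries. Dendritic cells had 3 UMIs in all, or 7.78 CPM (95% interval 1.61 to 22.8). Their range over the libraries, 0 to 9.21 CPM, did not overlap the 15.6 to 29.5 CPM of neutrophils, their neighbour in the order of levels. The interval, however, reaches into that range. All other neighbours overlapped.

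Fbxo7 (ENSMUSG00000001786, chr10:86021972-86051873, plus strand) was at 20.7, 20.5, 19.2 and 20.8 CPM in MG and 23.4, 18.8, 11 and 23.4 CPM in BM. Neutrophils were lowest, with 7 UMIs in all, or 6.56 CPM (2.64 to 13.5; 1.33 CPM without PBS), and were at 0 in monomer and PFF + VH, with upper 95% limits of 41.1 and 14.4 CPM. Neighbours in its order of levels overlapped throughout. A region of 358 bases is shared with the antisense gene A230060F14Rik.

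Park7 (ENSMUSG00000028964, chr4:150897133-150914437, minus strand) was highest in T cells in 4 of 4 libraries. T cells were at 223, 255.5, 259 and 234 CPM and NK cells at 168, 241, 160 and 173 CPM, while MG had 133, 130, 140 and 117 CPM. B cells had 187, 175, 134 and 195 CPM, below MG in PFF + VH. Neutrophils were lowest at 41.3, 11.1, 93.8 and 59.0 CPM. T cells were above MG and neutrophils below MG in 4 of 4 libraries, though neighbours in the order overlapped. The share of UMIs from ribosomal protein genes (Rpl and Rps) rose with Park7 from neutrophils over MG to T cells. It was 2.49 to 5.65%, 6.18 to 8.14% and 21.5 to 25.7% in these. Dendritic cells did not follow, with a share of 17.3 to 21.4% and pooled Park7 at 114 CPM, against 131 CPM in MG. Over the 21 points of class and library with at least 30 cells, Pearson's r of Park7 with that share was 0.827, a description over points that share libraries and depth. These points include no dendritic cells and only 1 library of monocytes. For Vps35 and Scarb2 r with the share was -0.705 and -0.647. The part of this share in the levels of the 3 genes was not tested. The window upstream of the RefSeq start, shown because Park7 is the other member that changed with AZD1480, is the minus strand of chr4:150909972-150910171. It holds no exon base but lies within the gene body of GENCODE vM21, whose start is farther upstream.
Park7: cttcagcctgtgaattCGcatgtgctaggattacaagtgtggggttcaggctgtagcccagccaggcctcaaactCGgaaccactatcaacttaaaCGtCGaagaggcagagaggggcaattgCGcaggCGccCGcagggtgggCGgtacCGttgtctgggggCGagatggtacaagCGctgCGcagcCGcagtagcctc
It holds 13 CG dinucleotides and none of the motifs searched, among them TTCNNNGAA, the palindrome of STAT sites, which 5.76% of all windows and no window of the 7 members matched hold.

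**Figure D2:**
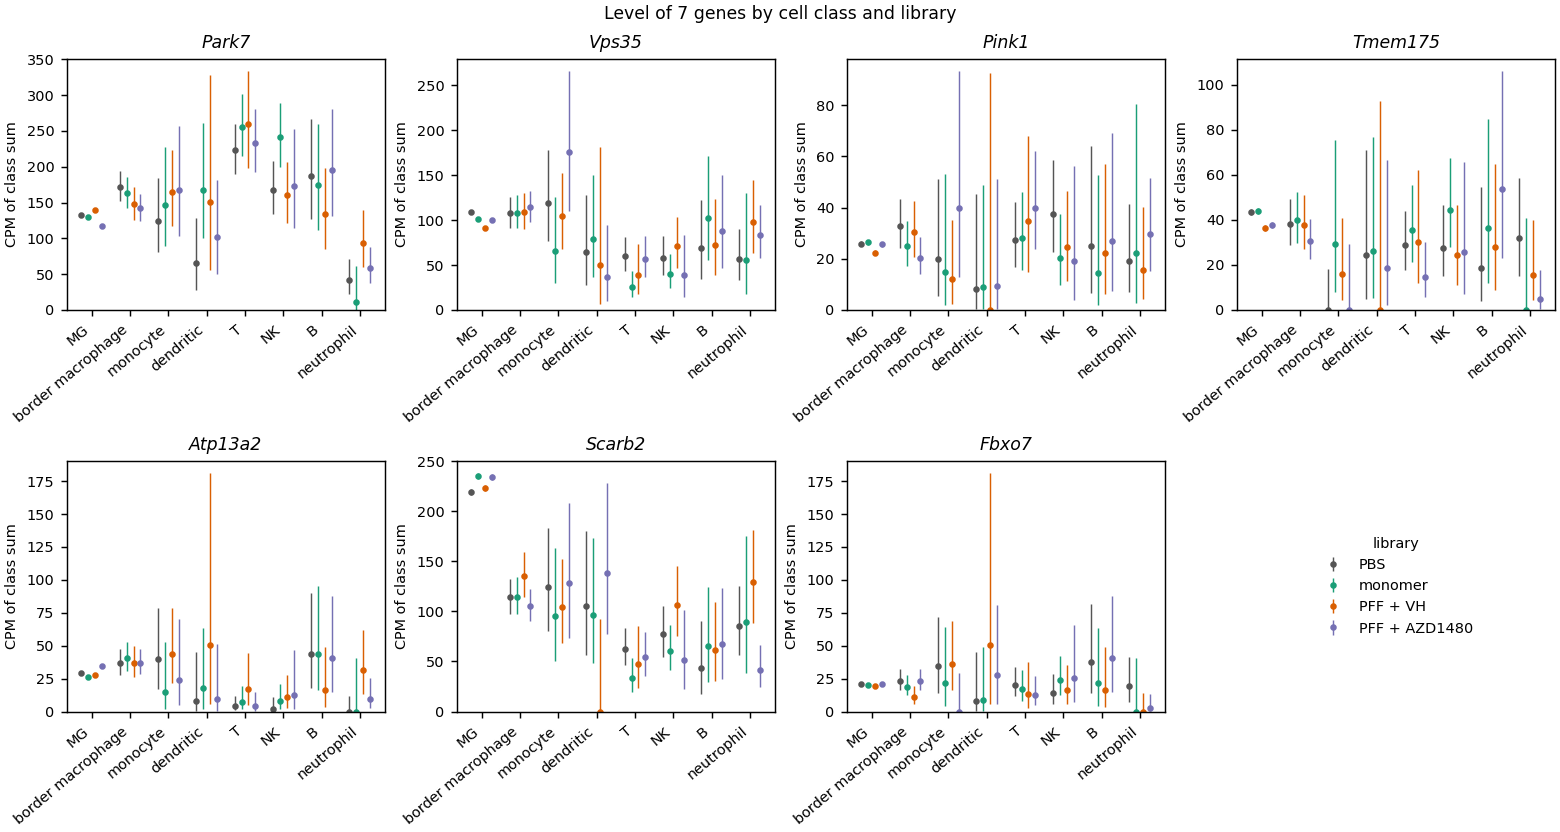
Levels of the 7 other genes in the same classes and libraries, in CPM with bars for the exact Poisson interval at 95%, each gene on its own axis from 0. Scarb2 is at 219.5 to 235 CPM in MG and at most 138 CPM in any other class, while Park7 is highest in T cells at 223 to 259 CPM.

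T cells alone reached 10 cells in too few hashtags for the paired test, so T and NK cells were joined, a choice made after the values were seen, which left 7 hashtags. Scarb2 was at 68.0 CPM in T and NK cells and 225 CPM in their MG, lower in 7 of 7 hashtags (log2 difference -1.75, SD 0.75). Vps35 was at 46.3 and 95.4 CPM, lower in 7 of 7 (-1.14, SD 1.10). For both the exact p was 0.01562, the smallest that 7 hashtags can give, and 0.045 after adjustment over 8764 genes, of which 34.8% passed. That makes 2 of 7 members tested, near the background. Ribosomal protein genes took 18.2 to 25.7% of UMIs in T and NK cells and 6.18 to 8.14% in MG, and the part of this in the differences was not tested. Park7 was higher in 6 of 7 hashtags (212 against 131 CPM, adjusted exact p 0.0724) and Atp13a2 lower in 6 of 7 (12.1 against 30.3 CPM, adjusted exact p 0.0999), and neither passed.

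Whether AZD1480 changed the members in MG after PFF was tested between the 4 hashtags of PFF + VH and the 5 of PFF + AZD1480, with the quasi-likelihood test of edgeR and Benjamini-Hochberg adjustment over all genes. Of 13731 genes tested 3660 passed, or 26.7%, of which 1662 were higher and 1998 lower with AZD1480. Of the members 7 were tested and 2 passed, near this background. Park7 was lower and Atp13a2 higher, and the other 5 did not pass.

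Park7 was at 139.8, 145.6, 139.2 and 139.6 CPM in the hashtags of PFF + VH and at 112.3, 119.3, 113.2, 119.1 and 114.8 CPM in those of PFF + AZD1480. The groups did not overlap. Their means were 141 ± 3.08 and 116 ± 3.30 CPM (SD, n = 4 and 5 hashtags), and the log2 fold change was -0.34 (SE 0.042, edgeR adjusted p = 0.000189), or a fall of 20.8% after scaling. Atp13a2 was at 25.6, 28.9, 25.6 and 28.1 CPM with VH and at 34.6, 36.2, 33.5, 32.9 and 36.6 CPM with AZD1480, again with no overlap. Its means were 27.0 ± 1.70 and 34.8 ± 1.63 CPM, and the log2 fold change was 0.31 (SE 0.059, edgeR adjusted p = 0.00281), or a rise of 23.8%. Both changes were of usual size, since the median absolute log2 fold change of the genes called was 0.314 and 54.3% and 48.1% of these genes changed less than Park7 and Atp13a2.

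**Figure D3:**
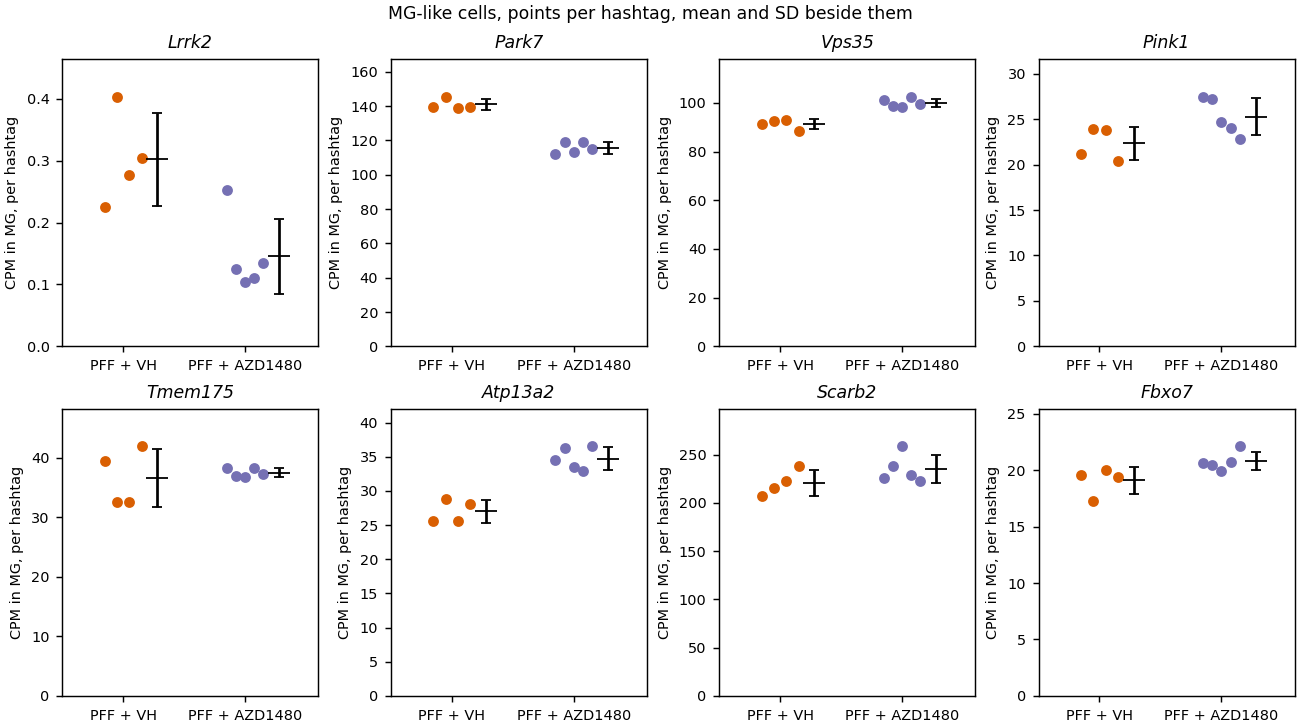
CPM of each gene in MG per hashtag, with 4 points for PFF + VH and 5 for PFF + AZD1480, and their mean and SD beside them. Park7 (139 to 146 against 112 to 119 CPM), Atp13a2 (25.6 to 28.9 against 32.9 to 36.6) and Vps35 (88.5 to 92.9 against 98.5 to 103) do not overlap between the groups, and the other genes do. These CPM are before scaling, and the share of all genes without overlap was not counted.

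Vps35 did not overlap between the groups either, at 88.5 to 92.9 CPM with VH and 98.5 to 103 CPM with AZD1480, but did not pass after scaling (log2 fold change 0.08, SE 0.042, edgeR adjusted p = 0.183). How many of all genes were without overlap was not counted, so the lack of overlap is not read as a result. Pink1 was at 20.4 to 23.9 and 22.8 to 27.5 CPM (0.13, SE 0.085, edgeR adjusted p = 0.270). Fbxo7 had a log2 fold change of 0.07, Scarb2 of 0.04 and Tmem175 of -0.02. Within 2 SE these 5 changes lay between -0.04 and 0.30 for Pink1, -0.0042 and 0.16 for Vps35, -0.05 and 0.19 for Fbxo7, -0.08 and 0.16 for Scarb2, and -0.15 and 0.12 for Tmem175 on the log2 scale. Lrrk2 had 19 UMIs in MG with a single hashtag in PFF + VH (0.225 to 0.404 CPM per hashtag) and 10 in PFF + AZD1480 (0.104 to 0.252 CPM), and did not reach the filter on low counts.

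The 2 libraries differ in depth and in RNA composition beside these values. Per hashtag, MG had a median of 2719 to 3305 UMIs with VH and 6389 to 7225 with AZD1480, and ribosomal protein genes took 7.91 to 8.77% and 5.93 to 6.63% of the UMIs. Of 92 Rpl and Rps genes tested 73 were lower with AZD1480 and 3 higher, with a median log2 fold change of -0.42. With only MG of 2000 to 6000 UMIs in both libraries 9.09% of genes passed and neither member did. Park7 then changed by -0.16 (SE 0.067, edgeR p 0.0343, adjusted p = 0.159), at 143 to 148 CPM with VH and 122 to 147 with AZD1480, groups that overlap. Atp13a2 changed by 0.33 (SE 0.107, edgeR p 0.00668, adjusted p = 0.0628), as much as before, at 25.8 to 27.0 and 24.5 to 40.8 CPM. Fbxo7 was the only other member under an unadjusted p of 0.05 there (0.31, SE 0.110, edgeR p 0.0122, adjusted p = 0.0900). In this range the ribosomal share was 8.13 to 9.04% with VH and 7.34 to 8.64% with AZD1480.

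**Figure D4:**
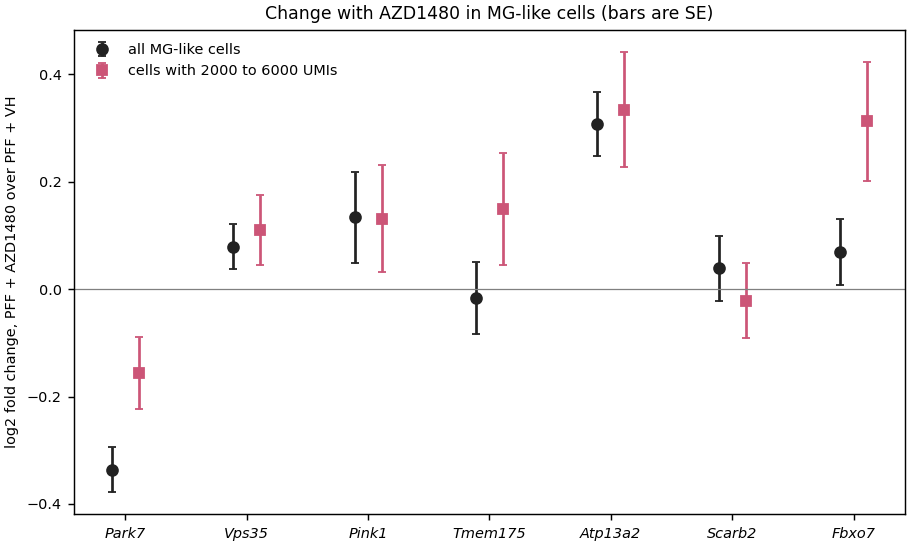
Log2 fold change of PFF + AZD1480 over PFF + VH in MG for the 7 members tested, with bars of 1 SE, for all MG and for MG with 2000 to 6000 UMIs. Park7 moves from -0.34 to -0.16 and Atp13a2 from 0.31 to 0.33, with larger errors in the narrower range.

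In BM, 42 of 3855 genes passed between PFF + VH and PFF + AZD1480, or 1.09%, and 3 members were deep enough to be tested. Scarb2 was at 74.3 to 162 CPM with VH and 78.8 to 120 CPM with AZD1480 (log2 fold change -0.45, SE 0.253, edgeR adjusted p = 0.543). Park7 changed by -0.16 (SE 0.241, edgeR adjusted p = 0.888) and Vps35 by -0.09 (SE 0.240, edgeR adjusted p = 0.946). None of the 3 passed in edgeR or DESeq2, and none had an unadjusted edgeR p under 0.05. The SE of these 3 genes was 0.240 to 0.253 in BM and 0.042 to 0.061 in MG, so that a change of the size seen in MG was not detectable in BM. The difference of the AZD1480 effect between BM and MG, tested as an interaction in edgeR over 12043 genes, passed for 113 (0.938%). None of the 3 members deep enough in BM passed (lowest edgeR p 0.0824, adjusted p = 0.639, Scarb2). The other 5 were also in this fit and did not pass, but they were under the filter on low counts in BM, where Lrrk2 had 2 UMIs over the hashtags of PFF + VH and 3 over those of PFF + AZD1480, and nothing is read from them.

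Genes around the members were read from 7 lists, with 116 different genes tested in MG. Of these 21 were higher and 20 lower with AZD1480, or 35.3%, with a median log2 fold change of 0.03, beside 26.7% and a median of -0.0005 over all genes. These calls are from all MG, in libraries that differ in depth and ribosomal share as given above. Within 2000 to 6000 UMIs 9.09% of all genes passed, and the list genes in that range are not reported here. The part of depth in the changes of the list genes was not tested. The antioxidant list around DJ-1 moved in both directions, with 3 of 14 genes higher and 4 lower (median -0.09). Nfe2l2, the transcription factor NRF2, rose from 346.5 to 557 CPM (log2 fold change 0.63, edgeR adjusted p = 0.000204). Gclc, the catalytic subunit of glutathione synthesis, and Txnrd1, a thioredoxin reductase, rose by 0.44 and 0.25. The peroxiredoxins Prdx1, Prdx2 and Prdx5 fell by 0.30, 0.20 and 0.31 on the log2 scale and thioredoxin Txn1 fell by 0.28. Genes such as Prdx1 have processed copies in the genome, which can take part of their reads.

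Of 16 retromer genes 4 were higher and 1 lower (median 0.10). The GTPase regulator Tbc1d5 rose from 452 to 569 CPM (0.28, edgeR adjusted p = 0.000676), the WASH complex members Washc2 and Washc4 rose by 0.29 and 0.22 and the sorting nexin Snx5 by 0.15. Vps29, which binds Vps35 in the core of retromer, fell by 0.13. Of 16 LRRK2 substrates and partners 3 were higher and 3 lower (median 0.06). Ppm1h, the phosphatase of LRRK2-phosphorylated Rabs, rose by 0.25, the substrate Rab10 by 0.12 and the adaptor Mapk8ip3 by 0.34, while Rab8a, Rab3a and the 14-3-3 protein Ywhae fell by 0.15, 0.32 and 0.12.

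Of 18 lysosomal genes 5 were higher and 2 lower (median 0.01). The transcription factors Tfeb and Tfe3 rose by 0.29 and 0.14, the channels Mcoln1 and Tpcn1 by 0.35 and 0.19, and the proton pump subunit Atp6v1a by 0.25. Npc2, a cholesterol carrier, fell by 0.35, from 826.5 to 673.5 CPM. The abundant proteases of this list, Ctsd (4713 CPM on average in MG) and Ctsb (1383), did not pass. In BM, Ctsd was 1 gene of 74 list genes tested to pass, with a log2 fold change of -0.65 (SE 0.147, edgeR adjusted p = 0.0449). That is 1.35% of these genes, near the 1.09% over all genes in BM.

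In the mitophagy list 2 of 22 genes were higher and 5 lower (median -0.07). Optn, a receptor for ubiquitinated mitochondria, and Tbk1, its kinase, rose by 0.49 and 0.14. Tomm7, which stabilises PINK1 at the outer membrane, fell by 0.49, from 94.0 to 69.4 CPM, and Tomm20, Vdac1, Phb and Phb2 fell by 0.18, 0.18, 0.26 and 0.18. Of 6 FBXO7 partners the ubiquitin ligase subunit Rbx1 and the modifier Nedd8 fell by 0.25 and 0.30 and none rose (median -0.17). Among 28 other PD genes tested 4 rose, Synj1 (0.29), Itpkb (0.27), Gigyf2 (0.21) and Dnajc13 (0.17), and 4 fell, among them Nucks1 (-0.27), Grn (-0.23) and Chchd2 (-0.19), with a median of 0.05. Dnajc6, Rab39b and Bst1 were among those not reaching the filter.

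Members were next compared between states of MG within hashtags, by the same exact sign-flip test. With states set by 3 markers of exactly 1 state, 12527 MG of PFF + VH and 7403 of PFF + AZD1480 were in the immediate early state and 582 and 204 in none, and no member passed in 14 tests over 2 states, nor did any gene by the sign-flip test (0% of 8098 and of 8336, with 798 and 1829 at an unadjusted p under 0.05). The DAM test had 6 hashtags, whose smallest possible exact p is 0.03125, so few calls could be had after adjustment. At an unadjusted exact p under 0.05 Park7 was the only member in each, higher in disease-associated microglia (DAM, 6 of 6 hashtags, log2 difference 0.32, adjusted exact p 0.317) and lower in the immediate early state (8 of 9, -0.51, adjusted exact p 0.0989). The MG in no state were shallower. Their median was 1585 UMIs against 2754 in the immediate early state in PFF + VH, and 2518.5 against 6631 in PFF + AZD1480. Because so few MG were left in no state, states were also set whatever the immediate early genes, which was decided with these values in view. These states did not exclude each other, so an MG could count in several of them. This gave 3383 and 2050 DAM, 559 and 122 MG with interferon genes, 316 and 83 cycling MG and 13109 and 7607 MG in none.

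DAM then had less Pink1 and Tmem175 and more Atp13a2 than MG in no state. Pink1 was at 17.4 to 21.8 CPM in DAM of PFF + VH and 20.7 to 25.1 in those of PFF + AZD1480, against 21.7 to 26.1 and 23.2 to 28.5 CPM in no state. It was lower in 9 of 9 hashtags (21.5 against 25.2 CPM, log2 difference -0.16, SD 0.076, exact p 0.003906, adjusted p 0.0105). Tmem175 was lower in 9 of 9 (32.8 against 38.6 CPM, -0.18, SD 0.16, with the same exact p and adjusted p). Atp13a2 was higher in 8 of 9 (36.1 against 29.8 CPM, 0.20, SD 0.16, exact p 0.00781, adjusted p 0.0175). With these 3 of 7 members passed, below the 56.5% of all 8297 genes. DAM were also deeper, at medians of 4459 and 8312 UMIs against 2689 and 6540. Within 2000 to 6000 UMIs, where 39.6% of genes passed, Tmem175 stayed lower in 9 of 9 hashtags (26.0 against 42.1 CPM, -0.65, adjusted exact p 0.0161) and Park7 was higher in 9 of 9 (161 against 136 CPM, 0.22, adjusted exact p 0.0161). Pink1 (-0.19, lower in 7 of 9, adjusted exact p 0.0772) and Atp13a2 (0.05, higher in 4 of 9, adjusted exact p 0.822) did not pass in that range.

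**Figure D5:**
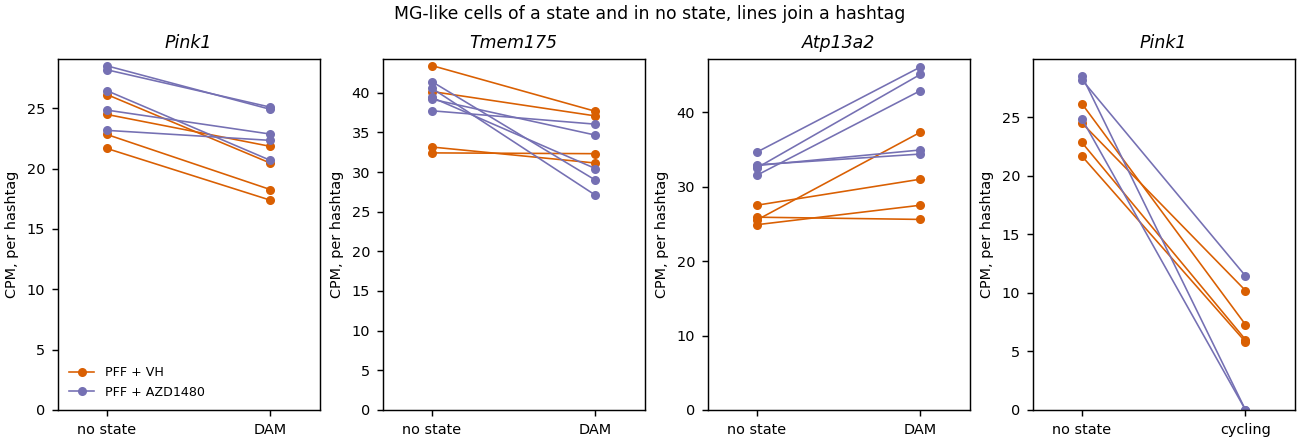
CPM per hashtag in MG of a state and in MG in no state, with a line for each of 9 hashtags (DAM) or 7 (cycling), for Pink1, Tmem175 and Atp13a2 in DAM and Pink1 in cycling MG. Pink1 falls in each line, in cycling MG to between 0 and 11.4 CPM.

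In cycling MG of 7 hashtags Pink1 was at 5.82 CPM against 25.2 CPM in no state. It was lower in 7 of 7 (log2 difference -1.21, SD 0.47), as was Scarb2 (193 against 227 CPM, -0.23), while Vps35 was higher in 7 of 7 (116.5 against 94.1 CPM, 0.26). Each had an exact p of 0.01562, the smallest that 7 hashtags can give, and an adjusted p of 0.066, so none passed. No gene of 8676 passed there (0%), with 3198 at an unadjusted p under 0.05. The Pink1 value rests on 12 UMIs over the cycling MG of these 7 hashtags. In MG with interferon genes 9.54% of 8346 genes passed and no member did (lowest adjusted exact p 0.202, Pink1), and none had an unadjusted p under 0.05. Lrrk2 had no UMI in interferon or cycling MG and is not read there.

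Between libraries without replicates, MG of PFF + VH and monomer can be set side by side only with counting intervals. The log2 ratio of PFF + VH over monomer was -0.28 for Tmem175 (-0.34 to -0.21), -0.24 for Pink1 (-0.32 to -0.16), -0.17 for Vps35 (-0.21 to -0.12), -0.10 for Fbxo7, -0.07 for Scarb2, 0.09 for Atp13a2 and 0.10 for Park7 (0.07 to 0.14). Lrrk2 had 0.97 (0.16 to 1.78), from 38 and 18 UMIs, and no rise in expression is read from it. The most UMIs in 1 MG were 6 in PFF + VH and 3 in monomer. A Lrrk2 UMI was seen in 0.102% of MG in PFF + VH and 0.116% in monomer, at median depths of 2457 and 6911 UMIs. Neutrophil markers in MG were at 88.5 and 7.03 CPM, and their part was not tested. Over 6347 genes of at least 20 CPM the median absolute ratio was 0.157 and the 90th percentile 0.348, so that the members other than Lrrk2, which is below 20 CPM, lay under that percentile. Among cells of 2000 to 6000 UMIs Tmem175 was at -0.50, Fbxo7 at -0.26, Park7 at 0.20, Vps35 at -0.09, Scarb2 at -0.04 and Atp13a2 at 0.01, which moved Tmem175, Fbxo7, Park7, Vps35, Scarb2 and Atp13a2 by over 1.5 times. The spread over all genes in that range is not given, so whether these ratios are usual there is not known. Between monomer and PBS the members other than Lrrk2 lay between -0.17 and 0.10 (Scarb2). The 90th percentile over the same genes was 0.158 there, and Atp13a2, at -0.17, was the member beyond it.

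The genes whose levels followed each member most closely were read as Pearson's r of log2(CPM + 10) over the same 21 points of class and library, among 6664 genes (6665 for Fbxo7) outside the marker lists. These points share libraries, depth and class, and r is a description with no test. For Lrrk2 they were Cd24a (0.965), Sp140 (0.936) and Ankrd33b (0.905), for Scarb2 Mef2a (0.927), Acvr1 (0.926) and Fam102b (0.923), and for Vps35 Zeb2 (0.918), Slc8b1 (0.877) and Atp6ap2 (0.877). Park7 was followed by Pebp1 (0.959), Rplp1 (0.942) and Tcp1 (0.941), and Atp13a2, among others, by BC028528 (0.892) and H2-DMa (0.885). For Fbxo7 they were Rnf220 (0.879), Psmd3 (0.779) and Lemd3 (0.776), for Tmem175 the first was Tasor (0.8) and for Pink1 Rbmx (0.716).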

How the data were processed

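CD45+ midbrain cells were profiled in 4 libraries, 1 for each group. The authors deposited UMI counts for each gene in each cell, made with Cell Ranger (7.0.1 per the file headers) on mm10. No normalization precedes them, and whether introns were counted is not given in the sources used here. Hashtag counts were deposited as rows of the PFF matrices. The members and lists were chosen with earlier results of these data known.

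Cells with 500 to 15000 UMIs, 250 to 5000 genes and at most 10% mitochondrial UMIs were kept, and no doublet caller was run. All 8 members are named. Genes of the lists are named where they are among the 4 with the highest mean CPM in MG or pass a test, and some of these are not reported here. HTODemux (Seurat 5.3.0, positive quantile 0.99, values centred across cells) gave a single hashtag to 53.3% of cells in PFF + VH and 80.1% in PFF + AZD1480. Other cells, hashtag doublets included, entered library values only. Sums per class and hashtag, from at least 10 cells in each, were tested with edgeR 4.0.16 in R 4.3.3 (TMM, filterByExpr, threshold 0.05). Paired tests of log2(CPM + 10), where the pseudocount lessens the change of low genes, took at least 6 hashtags and genes whose mean reached 10 CPM. Their p was adjusted over all these genes in each comparison, not over the members as planned. Both tests were checked on simulated data. DESeq2 1.42.0 and other settings were tried as alternatives. Of 32285 gene IDs 32158 matched GENCODE vM21, and 7 of 8 members matched a RefSeq promoter window (GRCm38), of which the 200 bases farthest upstream were used.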

Additional observations from a re-analysis of the deposited data

Results flagged for a closer look

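Of 22 groups of hashtags examined, 2 held a hashtag far from the others, where chance gives about 1 in 20. Lrrk2 in MG of PFF + AZD1480 was at 0.252 CPM in hashtag 1, while the next was at 0.135 CPM, a gap of few UMIs, since hashtag 1 held 4 and the others 1 or 2. Park7 in MG of PFF + VH was at 145.6 CPM in hashtag 2, the next being 139.8 CPM.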

How the results depend on the processing

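In MG the fall of Park7 and the rise of Atp13a2 passed under 10 of 11 other settings and with each hashtag left out (edgeR adjusted p 0.000483 to 0.00112 and 0.00241 to 0.0109). With cells of 2000 to 6000 UMIs the genes called fell from 3660 to 1037 and the members called to 0, and the member called between BM and MG, Scarb2, was lost as well (0), while the cause was not tested. Genes called in BM numbered 116 with no filter on low counts, 26 with MULTIseqDemux, 4 within 2000 to 6000 UMIs and 1 where class markers exceeded all others 3 times. With each hashtag left out they numbered 15 to 41 in BM, at 25, 19 and 17 without PFF + VH 1, 3 and 4 and 22 and 15 without PFF + AZD1480 1 and 2, and 2912 to 3360 in MG, with 2 members called in MG (2 to 2), 0 in BM and 1 between classes throughout. Between states, where no gene was called, the count of 0 says nothing about stability, and for DAM the hashtags left out were not among the 6 tested. Settings added after the data were seen gave 2 members called with T and NK cells joined, beside 34.8% of all genes. With states set whatever the immediate early genes they gave 3 members in DAM, beside 56.5% of all genes. Within 2000 to 6000 UMIs those states gave 2 members in DAM, beside 39.6% of all genes. Tmem175 was called in both DAM settings.

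Signs turned only in comparisons in which the member was not called. Tmem175 with AZD1480 in MG was 0.0084 (hashtags centred within cells), 0.037 (MULTIseqDemux) and 0.149 (2000 to 6000 UMIs), and Scarb2 was -0.00069 and -0.022 under the last 2 of these. Leaving out a hashtag gave -0.056 to 0.049 for Tmem175, -0.0014 to 0.066 for Scarb2, -0.17 to 0.056 for Vps35 in BM, -0.24 to 0.092 for Atp13a2 between BM and MG, and -0.056 to 0.056 for Atp13a2 and -0.075 to 0.26 for Pink1 in the immediate early state. Vps35 in BM was 0.055 with hashtags centred within cells and 0.040 at 3 times the markers. Between BM and MG, Atp13a2 was 0.127 with at least 1000 UMIs, 0.171 within 2000 to 6000 UMIs and 0.193 with hashtags centred within cells, and Vps35 was -0.042 within 2000 to 6000 UMIs. In the immediate early state Atp13a2 was -0.054 with at least 1000 UMIs, -0.0044 at 3 times the markers and -0.020 with hashtags centred within cells, and within 2000 to 6000 UMIs Tmem175 was 0.28 and Fbxo7 0.20. Scarb2 in DAM was -0.0018 at 3 times the markers and -0.053 with hashtags centred within cells.

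With the hashtag number as a replicate block 3151 genes were called in MG and 51 in BM. Deviations of MG hashtags of equal number correlated at 0.0062, 0.00055, -0.032 and 0.070. Those of unequal number ran from -0.099 to 0.069. No clear pairing by number was seen, but without samples known to be paired these values cannot settle it. The test of T cells was not run, since too few hashtags held 10 of them. Lrrk2 in MG, BM, T and NK cells rests on few UMIs, 3 to 84 for a pooled level, and in the 2000 to 6000 UMI range Lrrk2 in BM rests on 1 UMI.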
